A study of Mus musculus with 6 samples.

Results

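FoxO proteins are forkhead transcription factors. Most of them act in the nucleus until AKT, the kinase downstream of PI3K, phosphorylates them and 14-3-3 proteins hold them in the cytoplasm. The mouse has 4 FoxO genes, Foxo1, Foxo3, Foxo4 and Foxo6, which control survival, cell cycle exit, metabolism and, in the gonads, the upkeep of germ cells. In the ovary Foxo3 keeps primordial follicles at rest, and in the testis Foxo1 protein is found in gonocytes and undifferentiated spermatogonia. All 9 probes that the platform's annotation assigns to these genes were taken, detected or not, out of 45281 probes and 19057 named genes on the array: 2 for Foxo1 (Entrez gene 56458), 3 for Foxo3 (56484), 1 for Foxo4 (54601) and 3 for Foxo6 (329934). Each probe is described separately, because the probes of a gene need not lie in the same part of it.

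The RNA came from whole testes of FVB mice at postnatal day 4, 3 labelled Foxo1 null and 3 wild type, hybridised to Illumina bead arrays on 1 slide. Mice that lack Foxo1 in every cell die as embryos. Which part of Foxo1 the null allele lacks, in which cells it was removed and by what means are not given in the sources used here. It is also not stated whether a sample is 1 animal or a pool, so p-values measure the spread between these samples, which may be partly technical. The comparison of null with wild type belongs to a study of Foxo1 in spermatogonial stem cells.

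Between 20107 and 21665 probes were detected per array, each read on a median of 43 beads. Detection means a detection p-value under 0.05, where that p-value ranks the probe against the negative control probes, and the dimmest detected signal lay between 121 and 144 scanner units. The 20597 probes detected on 3 or more arrays were tested. The defining markers of the testis were present: Sox9 of Sertoli cells, Ddx4 and Dazl of germ cells and Star of Leydig cells were detected on all 6 arrays. So were Acta2 of peritubular cells, Pecam1 of endothelial cells, Csf1r of macrophages and Hba-a1 of red blood cells. Krt19 of duct epithelium was detected on 4 arrays, 3 null and 1 wild type, with a change of 1.49 (SE 0.43, adjusted p = 0.333, limma). Of 20 tested germ cell markers, 20 had lower values in null with a median change of -1.04 (log2), and 0 passed the test. Without adjustment, 18 of the 20 were lower at p under 0.05 (limma), against 8.79% of all tested probes in either direction. Nanos3, among the 18, was detected on 0 null and 3 wild-type arrays. It was thus tested only through the group where it is high, and its direction was fixed by the filter. The summed normalized intensity of the 20 markers was 3028 to 5235 on the null arrays and 7357 to 12883 on the wild-type arrays. These markers, Sall4 and Dppa4 among them, were chosen with earlier results of these data known. Their shared direction is thus no independent evidence. Markers of duct epithelium (rete testis and epididymis) set null replicates 2 and 3 apart, with mean log2 scores of 1.67 and 1.20, against 0.23 on null replicate 1 and -0.27 to 0.16 on the wild-type arrays. In RNA of a whole organ, fewer cells of a type and less RNA per cell cannot be told apart.

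Foxo1, the gene that the genotype label names, gave opposite readings at its 2 probes. ILMN_2656498 was lower in null and ILMN_2509340 was higher, each without overlap between the groups, and each passed the test over all probes. Both are annotated to the same RefSeq transcript, NM_019739.

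At ILMN_2656498 the scanner signals were 177, 161 and 232 on null replicates 1 to 3, against 339, 340 and 379 on wild-type replicates 1 to 3. The standard error over beads was 11.7, 8.15 and 12.4 units on the null arrays and 16.8, 16.7 and 20.6 units on the wild-type arrays. These errors cover the reading of an array, not the spread between samples. The probe was detected on all 6 arrays, and even the dimmest null array, replicate 2, stood 1.15-fold above the dimmest detected signal of its own array. Some signal at this probe was thus present in every sample labelled null.

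After background correction and normalization, ILMN_2656498 was at 6.37, 5.83 and 6.69 (log2) on null replicates 1 to 3 and at 8.08, 8.07 and 8.18 on wild-type replicates 1 to 3. The means were 6.30 ± 0.43 in null and 8.11 ± 0.06 in wild type (SD, n = 3 each), and the null arrays were the more spread out. The change of -1.81 (SE 0.22, 95% confidence interval -2.31 to -1.32) is 3.52-fold lower in null, with an adjusted p = 0.0273 (limma, Benjamini-Hochberg over all tested probes). On the scanner scale, with the background left in, the null mean was 0.539 of the wild-type mean. Over the whole array 28 of 20597 tested probes passed (0.136%), of which 26 were lower in null (0.126%) and 2 higher (0.00971%). At an unadjusted p under 0.05 the share was 8.79%. This probe ranked 16 by p-value among the probes lower in null. The call depended on the arrays: leaving out any single array other than null replicate 1 gave an adjusted p from 0.0987 to 0.122 (limma), with changes from -2.01 to -1.59.

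ILMN_2509340 behaved in the opposite way. Its scanner signals were 582, 467 and 621 on null replicates 1 to 3, against 136, 136 and 133 on wild-type replicates 1 to 3. The standard error over beads was 29.4, 14.6 and 24.4 units on the null arrays and 5.57, 5.31 and 4.69 units on the wild-type arrays. The wild-type arrays lay at the edge of detection: 2 of them were called detected, at 1.12-fold and 1.05-fold the dimmest detected signal, and replicate 3 was just under it with a detection p-value of 0.094. The null arrays stood 3.34-fold to 4.74-fold above that mark. The probe therefore read close to background in wild-type testes and clearly above it in each null testis.

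On the normalized scale ILMN_2509340 was at 8.82, 8.57 and 8.76 (log2) on null replicates 1 to 3 and at 5.69, 5.42 and 4.96 on wild-type replicates 1 to 3. The means were 8.72 ± 0.13 in null and 5.36 ± 0.37 in wild type (SD, n = 3 each). The change of 3.36 (SE 0.20, 95% confidence interval 2.89 to 3.82) is 10.2-fold higher in null, with an adjusted p = 0.00221 (limma), the smallest of all tested probes. It was the third largest change among the probes higher in null. The wild-type values sit near background, so the fold depends on the background model, and on the scanner scale the null mean was 4.12-fold the wild-type mean. The call held without any single array, with changes from 3.18 to 3.52.

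**Figure D1:**
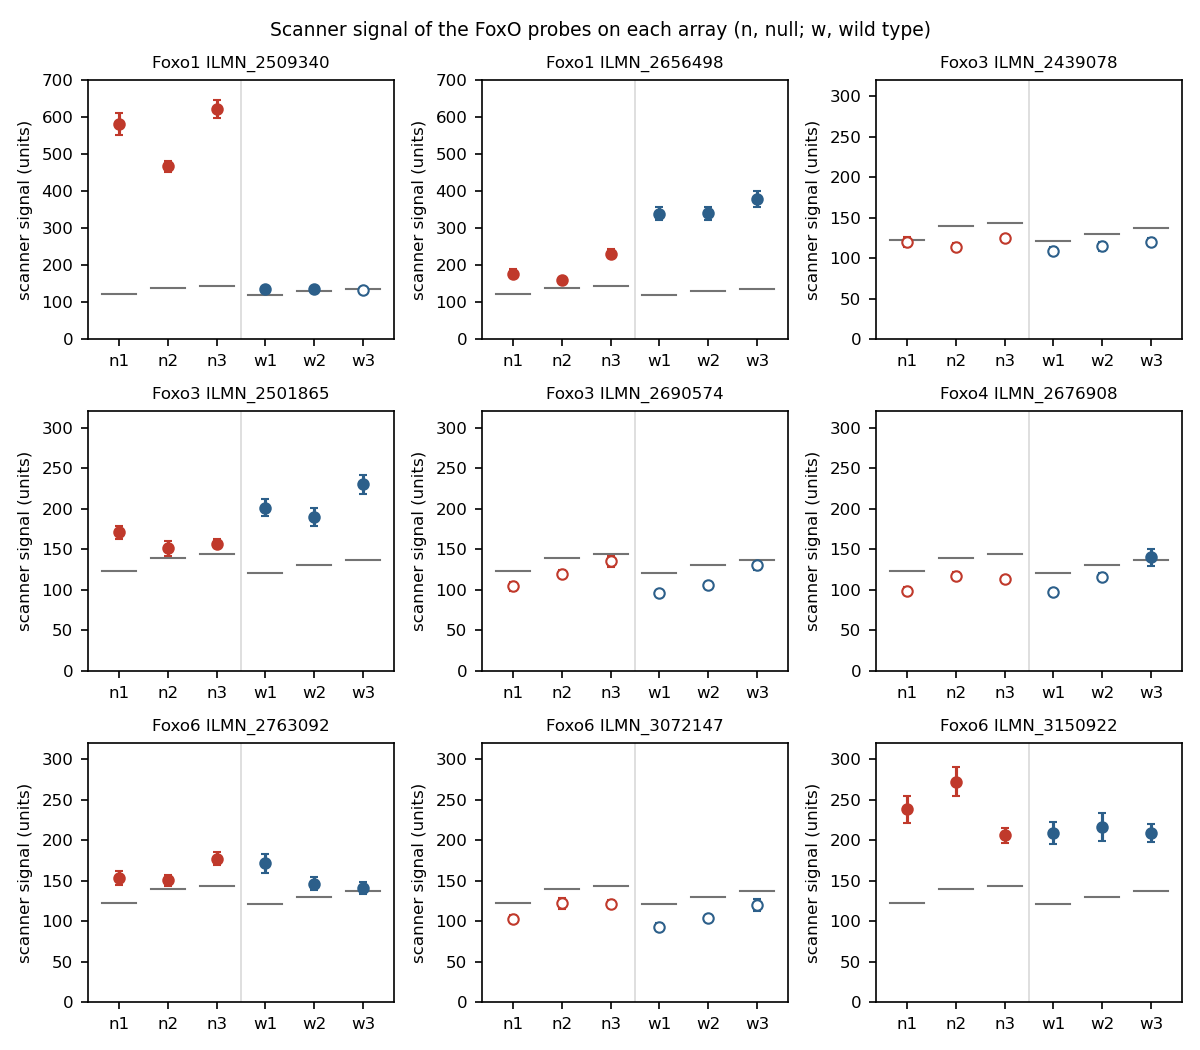
Scanner signal (vertical axis, scanner units) of each FoxO probe on null replicates n1 to n3 and wild-type replicates w1 to w3, with bars for the standard error over beads. Grey lines mark the dimmest detected signal of each array and open points are undetected; the vertical axis is longer for Foxo1. At ILMN_2509340 the null arrays lie between 467 and 621 and the wild-type arrays between 133 and 136, while at ILMN_2656498 null lies between 161 and 232 and wild type between 339 and 379.

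The changes of the Foxo1 probes can also be written as a single difference within each array, which restates the values above. The log2 value of ILMN_2509340 minus that of ILMN_2656498 was 2.45, 2.74 and 2.07 on null replicates 1 to 3, and -2.38, -2.65 and -3.22 on wild-type replicates 1 to 3. Every null array had a positive difference and every wild-type array a negative one; since different probes bind with different strength, only the shift between groups has a meaning. That shift was 5.17, with p = 0.1 by an exact two-sided permutation test over 20 splits, the smallest p that 3 against 3 arrays can give; it was fixed by the separation of the groups at both probes and adds no further evidence. Across the 6 arrays the probes had a Pearson correlation of -0.95, a description that rests on the separation of the 2 groups.

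**Figure D2:**
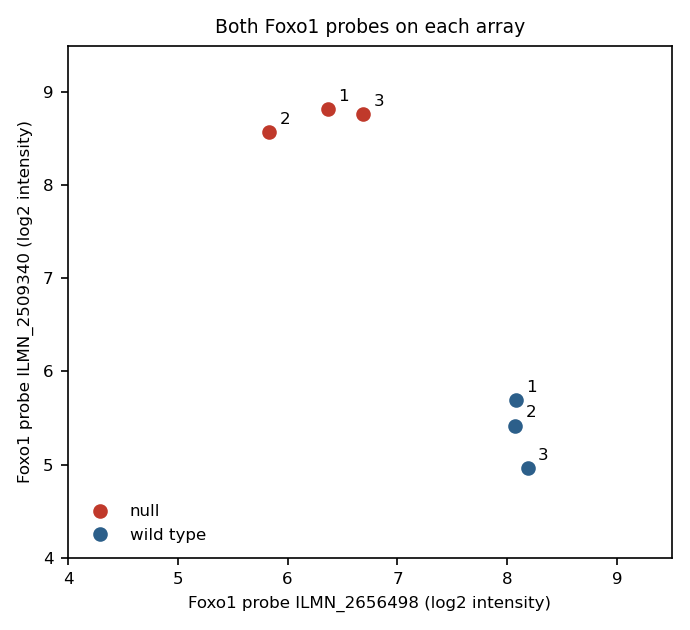
Normalized log2 intensity of Foxo1 probe ILMN_2656498 (horizontal) against that of ILMN_2509340 (vertical), a point for each array with its replicate number. The null arrays lie at the upper left and the wild-type arrays at the lower right, with no overlap on either axis.

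Opposite calls at probes of a single gene were not seen at other genes of this array, but they could hardly have been. Only 2 tested probes were called higher in null, ILMN_2509340 among them, so the absence elsewhere does not set Foxo1 apart. Several probes were tested for 4322 genes, and 3 of these genes had 2 called probes: Foxo1, Fgl1 and Ovol2. The called probes of Fgl1 (-2.91 and -2.18) and of Ovol2 (-1.86 and -1.23) were lower in null in both cases. A probe inside the deleted part of an allele reads the loss, and a probe outside it reads whatever RNA is still made. Neither Foxo1 probe can be placed inside or outside the deleted part here, since the probe sequences and the allele's design were not analysed. The probes thus give no measure of how much Foxo1 mRNA was lost, and the direction at either of them cannot be taken for the gene's.

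Foxo3, best known for its part in resting oocytes, was read above background by 1 of its 3 probes. The signals of that probe, ILMN_2501865, were 171, 151 and 157 on null replicates 1 to 3, against 201, 190 and 230 on wild-type replicates 1 to 3. All 3 null arrays were below all 3 wild-type arrays, and null replicates 2 and 3 were barely above the detection limit (1.08-fold and 1.09-fold the dimmest detected signal). The normalized values were 6.25, 5.54 and 5.39 (log2) on null replicates 1 to 3 and 6.94, 6.68 and 7.04 on wild-type replicates 1 to 3. The means were 5.73 ± 0.46 in null and 6.89 ± 0.19 in wild type (SD, n = 3 each). The change was -1.16 (SE 0.24, 95% confidence interval -1.71 to -0.62), which did not pass over all probes (adjusted p = 0.152, limma). The interval given is for this probe alone, without adjustment.

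The position of Foxo3 relative to the threshold changed when null replicate 1, the null array with its highest value, was left out and when arrays were weighted. Without null replicate 1 the Foxo3 change was -1.41 with an adjusted p = 0.0322 (limma), and with arrays weighted by their quality -1.29 with an adjusted p = 0.049 (limma). The shift was not particular to Foxo3: without null replicate 1 the calls over the whole array rose from 26 to 49 lower and from 2 to 21 higher in null. Without any other single array the adjusted p lay between 0.238 and 0.455. Without background correction the change was -0.51, and with the authors' normalized values -0.50. The order of the null arrays at this probe was not that at Foxo1 probe ILMN_2656498, where replicate 3 was the highest.

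The other 2 Foxo3 probes were undetected on all 6 arrays and were not tested. ILMN_2439078 read 115 to 125 scanner units on the null arrays and 109 to 120 on the wild-type arrays. ILMN_2690574 read 104 to 135 units on the null arrays and 96 to 130 on the wild-type arrays. The groups overlapped at both. A signal at background carries no level, so neither gives a further reading of the change at ILMN_2501865. Both are annotated to the same transcript as ILMN_2501865, and why only that probe was detected was not tested. Foxo3 in these testes is thus known from a single probe.

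Foxo4, an X-linked member of the family, was represented by 1 probe, ILMN_2676908, which was not tested. It read 98.8, 117 and 113 units on null replicates 1 to 3 and 97.4, 116 and 140 on wild-type replicates 1 to 3. Only wild-type replicate 3 was called detected, with a detection p-value of 0.0299. A level below the limit of this probe was not measurable, so Foxo4 is not shown to be absent in either genotype.

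Foxo6, the member best known from the brain, was detected by 2 of its 3 probes on all 6 arrays. ILMN_3150922 read 238, 272 and 206 units on null replicates 1 to 3 and 209, 216 and 208 on wild-type replicates 1 to 3. ILMN_2763092 read 153, 151 and 177 units on null replicates 1 to 3 and 171, 147 and 141 on wild-type replicates 1 to 3. The groups overlapped at both. ILMN_3072147 was undetected on all arrays, at 103 to 122 units on the null arrays and 92.6 to 120 on the wild-type arrays.

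The normalized change was 0.02 (SE 0.27, 95% confidence interval -0.59 to 0.64) at ILMN_3150922 and -0.07 (SE 0.29, 95% confidence interval -0.74 to 0.60) at ILMN_2763092. Neither passed (adjusted p = 0.993 and 0.98, limma). In terms of folds the intervals run from 0.666 to 1.55 at ILMN_3150922 and from 0.598 to 1.52 at ILMN_2763092, so equal levels are not shown. The spread was largest among the null arrays at ILMN_3150922 (SD 0.56 in null and 0.16 in wild type, n = 3 each) and among the wild-type arrays at ILMN_2763092 (SD 0.21 in null and 0.63 in wild type, n = 3 each). The within-array difference between these probes shifted by -0.10 between the groups (p = 1.0, exact two-sided permutation test), against 5.17 for the Foxo1 pair.

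**Figure D3:**
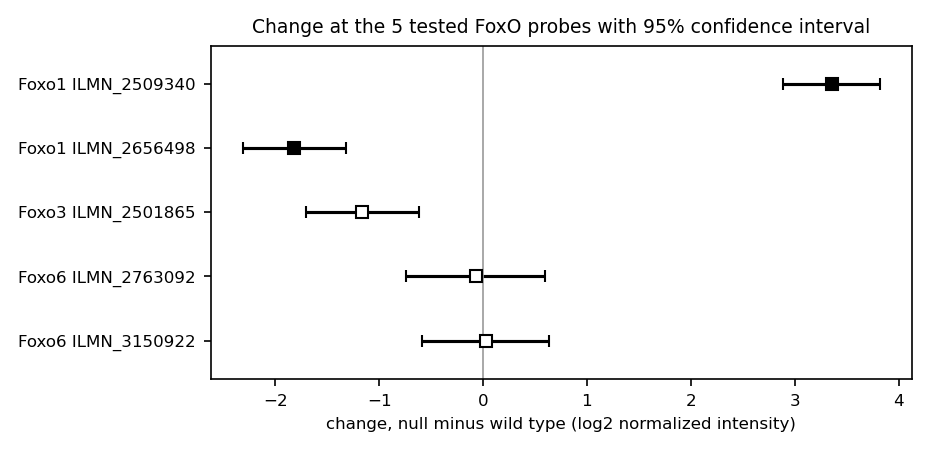
Change in normalized log2 intensity (null minus wild type, horizontal) at the 5 tested FoxO probes, with 95% confidence intervals from limma. Filled squares passed the threshold of adjusted p under 0.05: ILMN_2509340 lies at 3.36 and ILMN_2656498 at -1.81, while Foxo3 at -1.16 and the Foxo6 probes near 0 are open.

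In all, 2 of the 5 tested FoxO probes passed, both of Foxo1, against 28 of 20597 probes over the whole array (0.136%). At 3 of the 5 all null arrays lay on a single side of all wild-type arrays, the Foxo1 probes and Foxo3 ILMN_2501865; over the whole array such separation was found at 14% of probes, 7.73% lower and 6.23% higher in null. The other 4 FoxO probes were undetected on 5 or 6 arrays. As ILMN_2656498 and Foxo3 ILMN_2501865 were lower in the testes with lower germ cell markers, the summed marker levels given above stand beside them, and their part in these changes was not tested. The same holds for the duct epithelium markers, which were higher on null replicates 2 and 3: without null replicate 2 the change was -1.59 at ILMN_2656498 and -1.07 at Foxo3, and without null replicate 3 it was -2.01 at ILMN_2656498 and -0.99 at Foxo3. Each of these fits still holds the other array with high duct markers.

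The genes whose values followed each probe most closely over the 6 arrays were taken by Pearson correlation of the normalized log2 values. For ILMN_2656498 they were Ndufv1, a subunit of respiratory complex I (r = 0.997), Piwil1, a PIWI protein of the germ line (0.992), Mms19, which serves iron-sulfur protein assembly (0.992), Lss, lanosterol synthase (0.992), and Mre11a, a nuclease of double-strand break repair (0.991). Their own changes lay between -0.31 for Mms19 and -0.94 for Piwil1, and none passed the test (adjusted p from 0.126 to 0.572, limma). For ILMN_2509340 they were Folr2, a folate receptor (0.982), Pdgfc, a ligand of PDGF receptors (0.982), Creb3l4, a membrane-bound CREB relative (0.982), Ccnl2, a cyclin L (0.98), and P2rx4, an ATP-gated channel (0.979). Their changes lay between 0.48 for Pdgfc and 0.91 for Folr2, far below 3.36, and none passed (adjusted p from 0.0908 to 0.314, limma). For Foxo3 ILMN_2501865 they were Eif4enif1, which carries eIF4E into the nucleus (0.999), Greb1l (0.997), Mipep, a mitochondrial peptidase (0.996), Fam222b (0.995) and Atp11b, a lipid flippase (0.995). With 6 arrays in 2 groups such values describe these arrays only.

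The lists of FoxO regulators and FoxO targets show what was around the factors in the same RNA. Of 34 genes that control FoxO activity 28 had a tested probe; those without included Akt1 and Akt2, whose probes were detected on 0 to 2 arrays. Of the 28, 0 passed the test in either direction, 17 had negative and 11 positive values, and the median change was -0.06, against 0.01 over all 11145 genes tested. With no adjustment, 1 was lower and 2 were higher at p under 0.05, a share close to the 8.79% of all tested probes, so the genes named next do not stand out from the array. The smallest p was that of Pik3cd, the delta catalytic subunit of PI3K, which averaged 4.96 ± 0.27 (log2) in null and 5.90 ± 0.19 in wild type (SD, n = 3 each). Its change was -0.94 (SE 0.19, adjusted p = 0.132, limma), with 1 of 3 null arrays and 3 of 3 wild-type arrays detected.

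Pik3r1, the main regulatory subunit of PI3K, averaged 9.19 ± 0.22 (log2) in null and 8.58 ± 0.33 in wild type (SD, n = 3 each), a change of 0.62 (SE 0.20, adjusted p = 0.399, limma). Mapk8, the stress kinase JNK1, was at 0.41 (SE 0.16, adjusted p = 0.479, limma). Stk4, the kinase MST1, was at -0.30, Sgk3, an AKT-like kinase, at -0.28 and Mtor at -0.31, with adjusted p from 0.639 to 0.693 (limma). Among the regulators with a tested probe, the values nearest the threshold thus still missed it.

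Of 44 genes listed as FoxO targets 33 had a tested probe, with a median change of -0.01. Of the 33, 1 passed as lower and 0 as higher, against 0.126% lower and 0.00971% higher of all tested probes. The list includes 6 germ line genes entered with their values on these very arrays known (Ret, Egr2, Sall4, Dppa4, Lhx1 and Egr4), so their direction is no independent evidence. Egr2, a zinc finger factor induced by growth factors, was the gene that passed: it averaged 7.62 ± 0.42 (log2) in null and 9.52 ± 0.08 in wild type (SD, n = 3 each), a change of -1.91 (SE 0.22, adjusted p = 0.0239, limma). The other 5 had values from -3.20 for Ret, the GDNF receptor, to -1.78 for Lhx1, a LIM homeobox factor (adjusted p from 0.052 to 0.188, limma). The Ret probe was detected on 1 of 3 null arrays, so its size is set against values near background. Egr2 still passed when null replicate 1 was left out, and missed the threshold when any of the other 5 arrays was, with an adjusted p of 0.101 to 0.118 (limma).

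Without these 6, 27 tested targets known from other tissues remained, of which 0 passed in either direction, with a median of 0.03. At an unadjusted p under 0.05, 0 of the 27 were lower and 2 higher, a share no larger than the 8.79% of all tested probes, so the count is no result about the targets. The 2 were Ccnd1, cyclin D1 (0.73, SE 0.23, adjusted p = 0.377, limma), and Bcl6, a repressor (0.38, SE 0.16, adjusted p = 0.536, limma). These 2 are named after their values were seen. Ccnd1 averaged 10.5 ± 0.38 (log2) in null and 9.74 ± 0.28 in wild type (SD, n = 3 each), with overlapping groups. Bcl6 averaged 7.58 ± 0.19 (log2) in null and 7.20 ± 0.11 in wild type (SD, n = 3 each), without overlap.

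**Figure D4:**
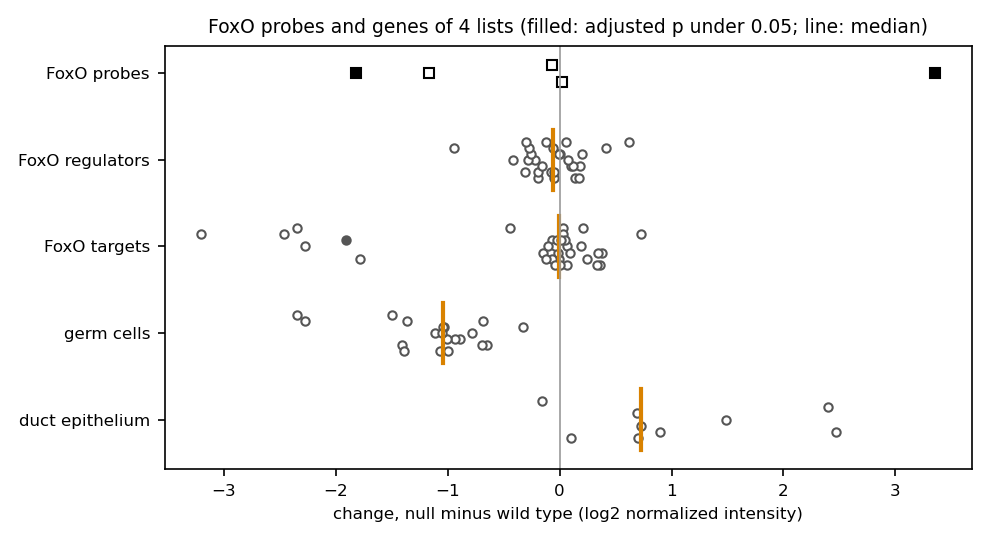
Change in normalized log2 intensity (null minus wild type, horizontal) of the 5 tested FoxO probes (squares) and of the tested genes of 4 lists (circles), filled where the adjusted p is under 0.05, with the list median as a line. The regulators and most listed targets lie around 0. The 6 germ line genes entered in the target list with their values known lie between -3.20 and -1.78. The germ cell markers all lie below 0 (median -1.04) and the duct epithelium markers mostly above (median 0.72). Sall4 and Dppa4 stand in the target and germ cell lists.

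Of the other cell type lists, 0 members passed. Without adjustment, at p under 0.05 (limma), 7 of 12 macrophage, 6 of 8 peritubular and smooth muscle and 2 of 13 endothelial markers were higher in null. So were 5 of 9 duct epithelium markers. In the same way 2 of 8 Leydig cell and 1 of 17 Sertoli cell markers were lower, against 8.79% of all tested probes in either direction. Among the 5 duct epithelium markers, Pax8 was detected on 3 null and 0 wild-type arrays. It was thus tested only through the group where it is high, and its direction was fixed by the filter. These lists too were chosen with earlier results of these data known. The medians were 0.04 for 17 tested Sertoli cell markers, -0.25 for 8 Leydig cell markers, 0.05 for 13 endothelial markers, 0.17 for 5 red blood cell markers, 0.55 for 12 macrophage markers and 0.52 for 8 peritubular and smooth muscle markers. Summed macrophage marker intensity was 2862 to 4250 on the null arrays and 2356 to 2931 on the wild-type arrays, and summed peritubular marker intensity was 38929 to 59566 on the null arrays and 29657 to 36011 on the wild-type arrays. Their part in the FoxO values was not tested.

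**Figure D5:**
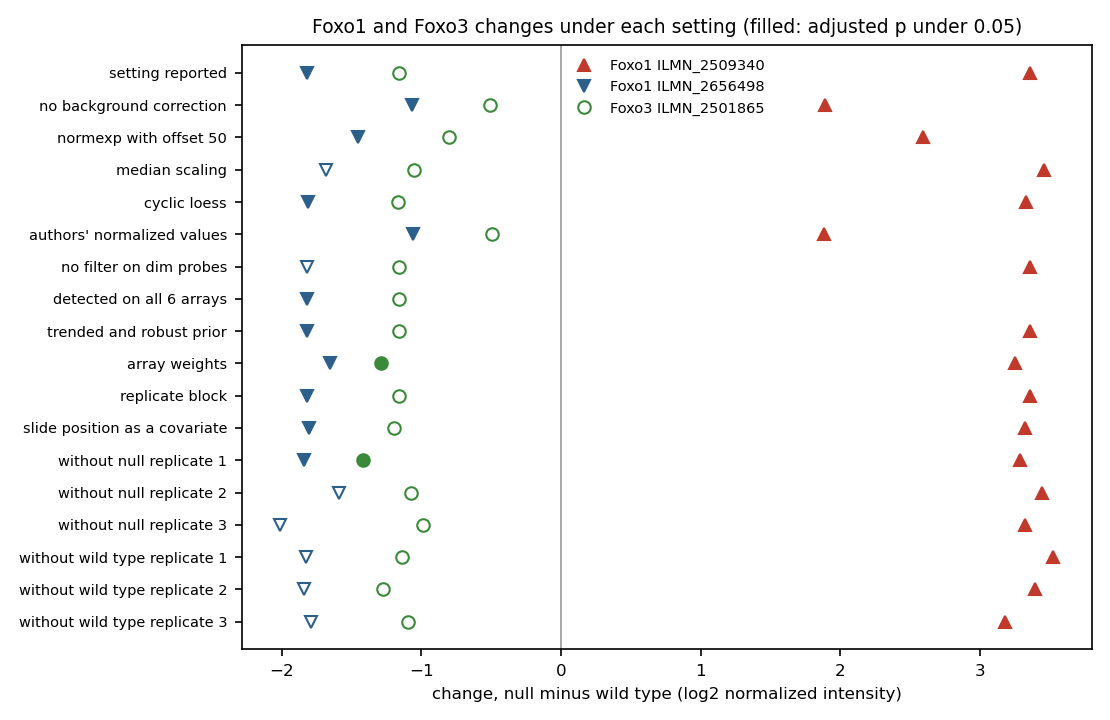
Change (null minus wild type, log2, horizontal) at the 3 Foxo1 and Foxo3 probes under each alternative setting, filled where the adjusted p is under 0.05. ILMN_2509340 stays between 1.88 and 3.52 and is filled wherever it was tested, ILMN_2656498 stays between -2.01 and -1.06 and is open in 7 settings, and Foxo3 stays between -1.41 and -0.50.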

How the data were processed

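Per the labels' protocols, total RNA was isolated with Trizol, purified on RNeasy columns and labelled with biotin by the MessageAmp kit. Per the submitters' processing notes the authors used BeadStudio; its version and settings are not given in the sources used here. The deposited scanner table gives, per the file headers, a mean intensity for each probe and array, the standard error over beads, the bead count and a detection p-value. These intensities were not normalized between arrays. A deposited table of the authors' normalized intensity values, of unstated method, served as an alternative.

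From the scanner intensities, limma 3.58.1 in R 4.3.3 corrected background with neqc (normexp fitted from detection p-values, offset 16), normalized by quantiles and took log2. Null minus wild type was fitted over all 20597 tested probes (lmFit, eBayes, no covariates), two-sided, with Benjamini-Hochberg adjustment at 0.05. The fit was tested on simulated data. The precision is limited by the 3 arrays a group. Lists took the tested probe with the highest mean per gene. Probes were named from the platform annotation; 34885 have 1 symbol. No genome build is named, so no coordinates are given.

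Named were all FoxO probes, for each called FoxO probe and the Foxo3 probe the 5 most correlated genes, called list members and up to 6 list members with the smallest p, and a fixed set of defining markers. The members and lists were chosen with earlier results of these data known. The alternatives were other background corrections, scalings, filters, variance models, array weights, the replicate block, slide position and leaving out each array. Removing 6 genes from the target list was added after seeing the data.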

Additional observations from a re-analysis of the deposited data

How the results depend on the processing

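ILMN_2509340 kept its direction and call in all 16 alternatives that tested it, from 1.88 (authors' normalized values) to 3.52; with detection required on all 6 arrays it was not tested. ILMN_2656498 kept its direction in all 17, from -2.01 to -1.06, but lost its call under median scaling (-1.68, adjusted p = 0.0513, limma), when all 45281 probes were tested (-1.81, adjusted p = 0.0669, limma) and in 5 of the 6 fits without an array (-2.01 to -1.59). Foxo3 ILMN_2501865 passed with array weights (-1.29) and without null replicate 1 (-1.41), and lay between -1.41 and -0.99 over the fits without an array. Median scaling moved the median of all tested probes to 0.12, from 0.01.

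The Foxo6 values changed sign with small sizes. ILMN_2763092 was at 0.027 with median scaling, 0.05 without null replicate 2 and -0.37 to 0.26 over the fits without an array. ILMN_3150922 was at -0.24 with array weights, -0.0065 with slide position as a covariate and -0.22 to 0.33 over the fits without an array, below 0 in 3 of them. The within-array shift of the Foxo1 pair was 2.96 without background correction, 4.04 with an offset of 50, 2.94 with the authors' normalized values and 4.96 to 5.35 without an array.

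The counts of 26 lower and 2 higher probes also moved. They were 53 and 9 without background correction, 74 and 13 with an offset of 50, 45 and 8 with the authors' normalized values, 1 and 1 with no filter, 17 and 1 with detection on all 6 arrays, 85 and 18 with a trended, robust prior, and 83 and 26 with array weights. Median scaling gave 12 lower, slide position gave 6 higher, and the fits without an array gave 0 to 49 lower and 1 to 21 higher. Without null replicate 1 they were 49 and 21; without null replicate 2, limma called 0 lower and 1 higher (758 and 617 with an unadjusted p under 0.05). The cause was not tested.

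The replicate number as a block gave 51 lower and 17 higher, with the Foxo1 probes still called (-1.81, adjusted p = 0.0213, and 3.36, adjusted p = 0.0065, limma) and Foxo3 not (adjusted p = 0.115, limma). Same-numbered arrays share only a number: the correlations of their deviations from the group means were 0.16, -0.10 and 0.11 for numbers 1, 2 and 3, and null replicate 2 correlated best with wild-type replicate 3.

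Target genes past the threshold as lower numbered 1 in the reported setting, 4 without background correction, 6 with an offset of 50, 0 with median scaling, 2 with cyclic loess, 3 with the authors' normalized values, 0 with no filter, 3 with the trended prior, 4 with array weights, 4 with the replicate block, 3 with slide position, 0 without the 6 genes known from these arrays, and 0 to 5 without an array. With median scaling the median was 0.12 for targets and 0.066 for regulators. Foxo4 and 3 further probes at background could not be measured at this signal.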
